A study of Mus musculus with 30 samples.

Results

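The course followed here is that of a mouse embryonic stem cell line with the genotype Pali1-/-, sampled at day 0 as stem cells and at day 4 and day 8 as embryoid bodies. At each of these 3 time points 2 libraries were sequenced, so the course rests on 6 of the 30 libraries of the series, chosen by their titles. Stem cells were kept in serum medium with the cytokine LIF on gelatin, and embryoid bodies, which are floating aggregates of cells that differentiate, were formed by taking LIF away on plates to which cells do not attach. Total RNA was freed of ribosomal RNA before strand-marked libraries were made. The 6 libraries of Pali wild type, grown through the same days, served to test whether a change was larger or smaller in the knockout. All 30 libraries set the spread behind every test. Libraries outside these 2 courses came from a Pali double knockout, a line with a trapped Aebp2 gene and wild type cells labelled C129. Descriptions of 2 double knockout libraries contradict their titles. The titles were followed, and the double knockout libraries enter only the shared spread. The labels call the libraries biological duplicates and name neither the clone nor the parental strain of the line, so the p-values measure the spread between cultures of a line and not between clones.

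PALI1 is a vertebrate protein encoded at the Lcor locus, and it binds Polycomb repressive complex 2 (PRC2). PRC2 places methyl groups on lysine 27 of histone H3, mostly at CpG-rich promoters of developmental genes that a stem cell keeps silent. When LIF is withdrawn, mouse stem cells first lose the naive state held by LIF and STAT3 signalling and pass through a state like that of the post-implantation epiblast, marked by Fgf5 and the de novo DNA methyltransferases. They then turn towards neural fates or, where WNT and NODAL signals act, towards the primitive streak and its mesoderm and endoderm.

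Values are normalised counts as deposited, named values from here on, and changes are differences of log2(value + 4) between days, with the standard error (SE) and adjusted p of a limma model over 15712 tested genes. A gene was called where the adjusted p was under 0.05. Column totals of the 6 knockout libraries ran from 15544793 to 17788962, and the depth read from the steps between low values ran from an estimated 14179242 to 18917413 reads. Duplicates correlated across genes with r from 0.9332 to 0.9363. Some values of 0 can be failed estimates, since Ezh2, which encodes the PRC2 enzyme, was listed at 0 and 0 at day 0, 0 and 11.4 at day 4 and 0 and 0 at day 8, a gene named after its values were seen. For this reason no fold is given where both libraries of a day were at 0. Replicate 2 of Pali wild type at day 8 held far more Afp, an extraembryonic endoderm gene, at 1947 against 8.03 in replicate 1. Each difference from wild type at day 8 was also computed without this replicate 2. At day 4 replicate 2 of Pali wild type was also the higher for Afp, at 92.2 against 7.25. Over the extraembryonic endoderm genes its mean log2(value + 4) was 7.21 against 5.81. Both intervals of the wild type course use the day 4 libraries.

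Lcor (chromosome 19, 41482682 to 41596161 on GRCm38.p6, protein-coding) does not check the labels here, because a value per gene does not separate the PALI1 transcript from the shorter LCOR one. It stood at 108 and 61.7 at day 0, 90.0 and 56.9 at day 4 and 107 and 133 at day 8. Lcorl, the paralogous locus that encodes PALI2, stood at 520.0 and 516 at day 0, 652 and 606 at day 4 and 742 and 749.9 at day 8, and its rise from day 0 to day 8 was 0.52 (SE 0.17, adjusted p = 0.0197), a call lost when any of the 4 libraries was left out. Core pluripotency factors were high at day 0, with Pou5f1 at 21735 and 20336, Nanog at 13347 and 13320 and Sox2 at 11444 and 11483. Pou5f1 was still at 17511 and 17082 at day 4, so these values alone do not check the label of the day.

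From day 0 to day 4, 4792 genes (30.5% of those tested) were called, 2393 higher (15.2%) and 2399 lower (15.3%). Falling members outnumbered rising ones in the lists of pluripotency, 2-cell-like and germline genes and in others, such as those of respiratory chain and G2/M genes. Rising members outnumbered falling ones in the lists of primed epiblast and imprinted genes and in others, such as those of Notch, WNT and neuroectoderm genes. Changes of at least 4-fold were called upward for 572 genes and downward for 380. The libraries are bulk RNA, so fewer cells of a type and less RNA per cell cannot be told apart.

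Of 35 tested pluripotency genes, 27 fell from day 0 to day 4 and 0 rose, with a median change of -2.17 against 0.0 over all tested genes. Klf4, a transcription factor kept up by LIF, stood at 3293 and 3332 at day 0, 258 and 361 at day 4 and 443 and 389 at day 8. Both day 4 libraries lay far below both day 0 libraries, and the change was -3.42 (SE 0.36, adjusted p = 1.66e-06). Stat3, which carries the LIF signal to the nucleus, stood at 2520.4 and 2428 at day 0, 449 and 403 at day 4 and 488 and 418 at day 8. Stat3 changed by -2.53 (SE 0.13, adjusted p = 9.52e-10) to day 4. Tdh, the threonine dehydrogenase that feeds mouse stem cell metabolism, stood at 14362 and 13042 at day 0, 1986 and 2438 at day 4 and 2973 and 2845 at day 8. Tdh changed by -2.63 (SE 0.15, adjusted p = 3.57e-09) to day 4. Spp1, a secreted phosphoprotein of naive cells, stood at 12618 and 13850 at day 0, 1170.1 and 1326 at day 4 and 1945 and 1599.5 at day 8. Spp1 changed by -3.40 (SE 0.23, adjusted p = 1.99e-08). In each of these 4 genes the groups of day 0 and day 4 did not overlap, and the day 8 libraries stayed well below the day 0 libraries. Groups did not overlap for 4789 of the 4792 genes called in this interval and for 2275 of 2275 in the later one, so a gap between groups adds nothing to a call.

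Zfp42 (REX1) and Esrrb, 2 further markers of the naive state, changed by -2.44 (SE 0.31, adjusted p = 1.13e-05) and -2.37 (SE 0.23, adjusted p = 8.86e-07), and Klf5, a Krüppel-like factor, by -2.72 (SE 0.18, adjusted p = 1.25e-08). Nanog stood at 13347 and 13320 at day 0, 6642 and 7789.5 at day 4 and 6012 and 4548 at day 8. Nanog changed by -0.89 (SE 0.17, adjusted p = 0.000723). Sox2 stood at 11444 and 11483 at day 0, 5429 and 6294 at day 4 and 5816 and 5339 at day 8. Sox2 changed by -0.97 (SE 0.10, adjusted p = 1.73e-06). Pou5f1, which encodes OCT4, followed another order. It stood at 21735 and 20336 at day 0, 17511 and 17082 at day 4 and 8666 and 6640.4 at day 8, so that its day 4 libraries lay just under those of day 0 with a change of -0.28 (SE 0.25, adjusted p = 0.456), which missed the threshold. It fell between day 4 and day 8, with a change of -1.19 (SE 0.25, adjusted p = 0.00425), and this call was lost without replicate 2 of day 8. Utf1, a chromatin factor of undifferentiated cells, shared that order at 2039.6 and 2013 at day 0, 2057 and 2274 at day 4 and 1010.2 and 749.8 at day 8, with a change of 0.09 (SE 0.23, adjusted p = 0.824) to day 4 and -1.31 (SE 0.23, adjusted p = 0.00113) from day 4 to day 8.

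**Figure D1:**
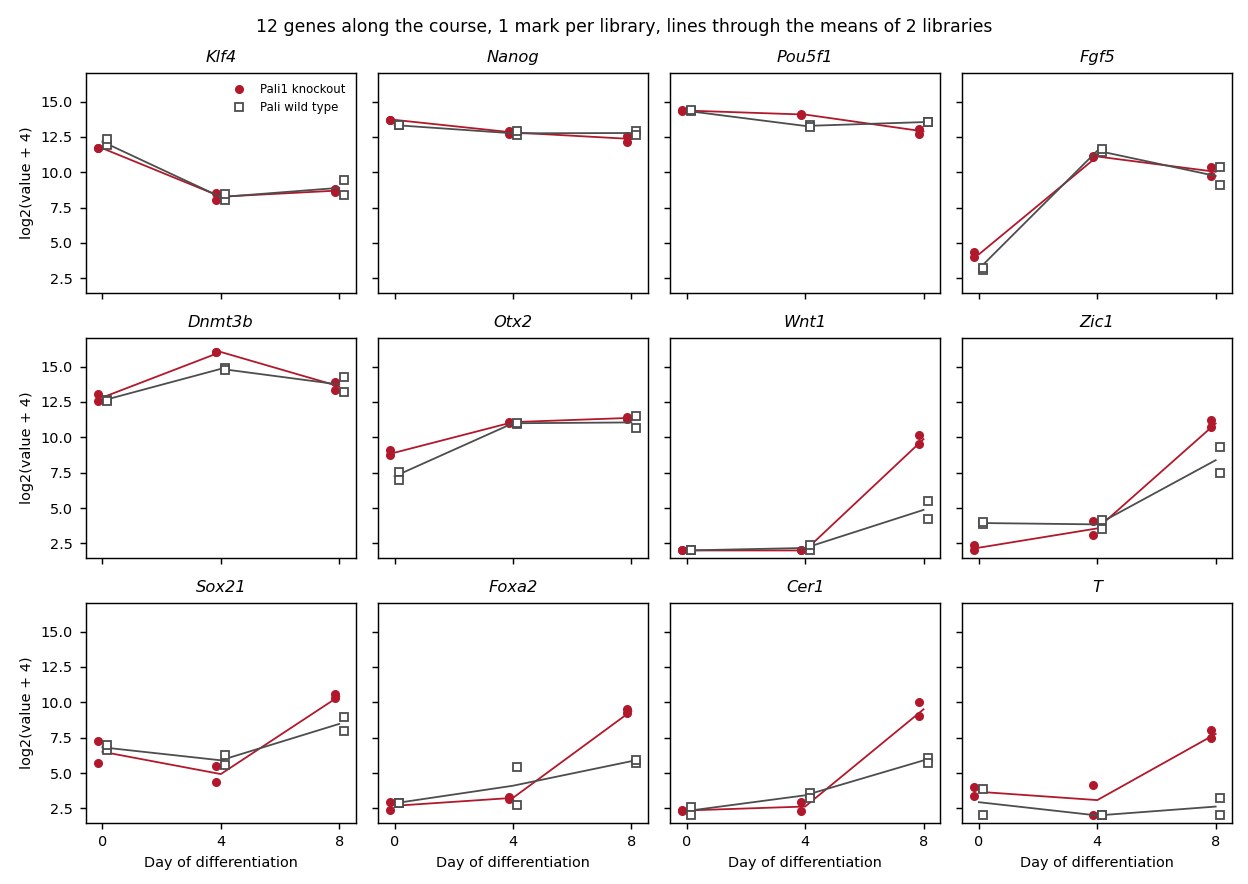
log2(value + 4) of 12 genes at day 0, 4 and 8, with 1 red dot per Pali1 knockout library, 1 open square per Pali wild type library and lines through the means of 2 libraries. Klf4 fell and Fgf5 and Dnmt3b rose by day 4, whereas Wnt1, Zic1, Foxa2 and Cer1 stayed below 5 in the knockout until day 8, when they exceeded 8 in both of its libraries.

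The primed epiblast list moved the other way in the same interval, with 17 of 25 tested genes higher and 4 lower from day 0 to day 4 (median 1.45). Fgf5 (chromosome 5, 98254184 to 98277033, protein-coding), the growth factor that defines the epiblast after implantation, stood at 16.6 and 12.3 at day 0, 2216 and 2207 at day 4 and 1297 and 839 at day 8. Its rise of 6.92 (SE 0.51, adjusted p = 4.58e-08) was the largest of the named rises of this interval, and the day 4 duplicates were almost equal. Pim2, a serine/threonine kinase, stood at 438 and 647 at day 0, 12587 and 14770 at day 4 and 4767 and 3257 at day 8. Pim2 rose by 4.67 (SE 0.43, adjusted p = 4.66e-07). Pou3f1, the epiblast and neural POU factor also called OCT6, stood at 73.2 and 105 at day 0, 1009 and 1134 at day 4 and 418 and 347 at day 8. Pou3f1 rose by 3.55 (SE 0.35, adjusted p = 7.97e-07). All 3 genes were lower again at day 8 than at day 4 but above day 0. The changes after day 4 of Pim2, -1.79 (SE 0.43, adjusted p = 0.00932), and of Pou3f1, -1.48 (SE 0.35, adjusted p = 0.00791), were called, and each call was lost without replicate 2 of day 4 and without replicate 2 of day 8. Over the whole list, 4 genes rose and 7 fell from day 4 to day 8 (median 0.01). The 4 were 1 without replicate 1 of day 4 and 2 without either replicate of day 8, and the 7 were 4 without replicate 1 of day 4 and 2 without replicate 2 of day 4 or of day 8.

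Otx2, a homeobox factor of the epiblast and later of the forebrain and midbrain, stood at 533 and 428 at day 0, 2089.9 and 2208 at day 4 and 2533 and 2770.4 at day 8. It rose to day 4 by 2.16 (SE 0.24, adjusted p = 3.03e-06), and its further change of 0.30 (SE 0.24, adjusted p = 0.464) to day 8 missed the threshold. Tead2, a nuclear partner of YAP, rose by 1.25 (SE 0.11, adjusted p = 2.71e-07), and Nes, the intermediate filament nestin of neural progenitors, by 3.07 (SE 0.23, adjusted p = 4.91e-08), from 715 and 806 to 6671 and 6174. The list's falling members were Nodal, Lefty1, Lefty2 and Etv5. Lefty2, a secreted NODAL antagonist that NODAL itself induces, stood at 8100.3 and 7564 at day 0, 786 and 1459.6 at day 4 and 3140.4 and 2209.7 at day 8. Lefty2 changed by -2.86 (SE 0.36, adjusted p = 9.77e-06) to day 4, and Lefty1 changed by -2.44 (SE 0.46, adjusted p = 0.000601). Etv5, an ERK-induced ETS factor, changed by -0.81 (SE 0.09, adjusted p = 2.04e-06).

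The DNA methylation genes did not move together in this step. Of 18, 2 were higher (11.1%, against 15.2% of all tested genes) and 6 lower (33.3%, against 15.3%). Dnmt3b (chromosome 2, 153649411 to 153687730, protein-coding), a de novo DNA methyltransferase, stood at 6031 and 8600.1 at day 0, 68117 and 65652 at day 4 and 15117 and 10178 at day 8. The day 4 libraries stood apart from all others, with a rise of 3.21 (SE 0.37, adjusted p = 4.15e-06) and then a change of -2.43 (SE 0.37, adjusted p = 0.000259). Dnmt3a, the second de novo enzyme, stood at 2179 and 2272 at day 0, 4736 and 4628 at day 4 and 2515 and 2872 at day 8. Dnmt3a rose by 1.07 (SE 0.16, adjusted p = 5.72e-05) to day 4 and changed by -0.80 (SE 0.16, adjusted p = 0.00258) after it. At day 8 neither enzyme differed from day 0 beyond the threshold, with changes over the 8 days of 0.78 (SE 0.37, adjusted p = 0.0978) and 0.27 (SE 0.16, adjusted p = 0.188). Dnmt3l, their catalytically inactive partner, went the other way at 5094 and 5299 at day 0, 914 and 970.4 at day 4 and 1459.6 and 1220.2 at day 8. Dnmt3l changed by -2.46 (SE 0.24, adjusted p = 1.02e-06) to day 4. Zfp57, a zinc finger protein that protects methylated imprints, stood at 3142 and 3853 at day 0, 494 and 564 at day 4 and 831 and 934 at day 8 and changed by -2.71 (SE 0.15, adjusted p = 3.06e-09).

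Genes of the 2-cell-like state, which a small share of stem cells enters at any time, fell in 13 of 23 tested cases from day 0 to day 4 and rose in 0 (median -1.44). This count was 5 without replicate 2 of day 0. Zscan4c, which encodes a zinc finger protein that marks the state, stood at 246 and 519.8 at day 0, 64.9 and 50.8 at day 4 and 87 and 77.2 at day 8. Zscan4c changed by -2.56 (SE 0.54, adjusted p = 0.00156) to day 4. Zscan4d stood at 45.9 and 86.6 at day 0, 0 and 2.63 at day 4 and 13 and 13.2 at day 8. Zscan4d changed by -3.71 (SE 0.63, adjusted p = 0.000191). Both day 0 libraries were above both day 4 libraries in each gene, and replicate 2 was the higher of the day 0 libraries. The Zscan4 genes are near-identical copies, so how reads were split between them is uncertain.

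Germline and meiosis genes, several of which stem cells express under control of DNA methylation, fell in 14 of 35 tested cases and rose in 0 (median -1.04). Tex19.1, a regulator of retrotransposons in germ cells, stood at 657 and 797 at day 0, 191 and 285 at day 4 and 301 and 324 at day 8. Tex19.1 changed by -1.62 (SE 0.17, adjusted p = 1.49e-06). Syce1, a part of the synaptonemal complex that pairs chromosomes in meiosis, stood at 284 and 242 at day 0, 50.3 and 74.5 at day 4 and 37 and 44.7 at day 8. Syce1 changed by -2.03 (SE 0.27, adjusted p = 2.15e-05). Zp3, a coat protein of the egg, stood at 105 and 126 at day 0, 13.6 and 10.5 at day 4 and 32.6 and 32.5 at day 8. Zp3 changed by -2.90 (SE 0.43, adjusted p = 5.76e-05). Sycp3, another synaptonemal complex protein, fell later, at 227 and 173 at day 0, 228 and 266 at day 4 and 54.4 and 39.6 at day 8. Sycp3 changed by -2.31 (SE 0.32, adjusted p = 0.000109) from day 4 to day 8.

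Genes of 2 signalling pathways moved in both directions in this interval, in shares not far from those over all tested genes (15.2% higher and 15.3% lower). Of 42 NODAL and BMP genes, 8 rose (19%) and 9 fell (21.4%), and the 9 were 5 without replicate 2 of day 0. Of 30 FGF and ERK genes, 6 rose and 6 fell (20.0% each). Inhbb, a subunit of activin B, stood at 502 and 468 at day 0, 4.84 and 1.75 at day 4 and 7.61 and 8.13 at day 8. Inhbb changed by -6.10 (SE 0.40, adjusted p = 1.25e-08) to day 4. Both day 4 values were under 5, so the fold rests on a few reads at day 4. Tdgf1 (CRIPTO), the NODAL coreceptor, stood at 18811 and 19766 at day 0, 5152 and 6085 at day 4 and 6077 and 4513 at day 8. Tdgf1 changed by -1.78 (SE 0.32, adjusted p = 0.000393), and Gdf3, a NODAL-related ligand, changed by -1.92 (SE 0.30, adjusted p = 0.000109). Acvr2b, an activin receptor, rose in the same step from 3259 and 3234 to 8059 and 6792, by 1.19 (SE 0.12, adjusted p = 1.57e-06), and Furin, the protease that activates NODAL precursors, rose by 1.84 (SE 0.16, adjusted p = 1.95e-07). Fgf4, the FGF ligand of stem cells, stood at 6637 and 6295 at day 0, 1058 and 1087 at day 4 and 1056 and 832 at day 8. Fgf4 changed by -2.59 (SE 0.24, adjusted p = 5.38e-07). Spry4, a feedback inhibitor of ERK signalling, stood at 2941 and 3000.5 at day 0, 426 and 488 at day 4 and 674 and 689 at day 8. Spry4 changed by -2.69 (SE 0.28, adjusted p = 1.82e-06).

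Other large rises of this interval included genes of axons and adhesion. Sema6a, a semaphorin that guides cell and axon migration, stood at 63.3 and 59.5 at day 0, 3981 and 3521 at day 4 and 1566 and 1136 at day 8. Sema6a rose by 5.84 (SE 0.30, adjusted p = 1.71e-09) to day 4. Snph, syntaphilin, which anchors mitochondria in axons, stood at 1.25 and 5.01 at day 0, 405 and 311 at day 4 and 116 and 79.5 at day 8. Snph rose by 5.70 (SE 0.49, adjusted p = 2.21e-07). Stxbp6, a SNARE-binding protein, was listed at 0 and 0 at day 0, 235 and 399 at day 4 and 359 and 411 at day 8, and Cdh13, an adhesion protein of the cadherin family, at 0 and 0 at day 0, 242 and 158 at day 4 and 354 and 246 at day 8. The calls of these 2 genes had adjusted p = 1.24e-06 and adjusted p = 1.63e-07. After day 4 Sema6a changed by -1.49 (SE 0.30, adjusted p = 0.00316), a call lost without replicate 2 of day 8, and Snph by -1.84 (SE 0.49, adjusted p = 0.0179), a call lost with a pseudocount of 1 and without any library but replicate 1 of day 8.

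Among the named largest falls of the step, Krt17, a keratin, stood at 542 and 535 at day 0, 14.5 and 8.76 at day 4 and 22.8 and 10.2 at day 8. Krt17 changed by -5.14 (SE 0.31, adjusted p = 5.83e-09). Serpinb6c, a serine protease inhibitor, stood at 308 and 307 at day 0, 0 and 6.13 at day 4 and 1.09 and 0 at day 8. Serpinb6c changed by -5.61 (SE 0.86, adjusted p = 7.62e-05). Both genes stayed low at day 8. Clspn, claspin of the replication checkpoint, stood at 159 and 299.8 at day 0, 1.94 and 7.01 at day 4 and 8.7 and 65 at day 8. Clspn changed by -4.78 (SE 0.89, adjusted p = 0.0005), and its day 8 duplicates lay far from each other.

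From day 4 to day 8, 2275 genes (14.5%) were called, 1367 higher (8.70%) and 908 lower (5.78%). Rising members outnumbered falling ones in the lists of the midbrain and dorsal neural tube, neural progenitors, the primitive streak, definitive endoderm, WNT, NODAL and BMP signalling and the extracellular matrix. The same held in further lists, such as those of mesoderm derivatives, neurons and Notch genes. Falling members outnumbered rising ones in others, such as those of ribosomal protein and respiratory chain genes. Changes of at least 4-fold were called upward for 489 genes and downward for 66. The count was 1305 without replicate 1 of day 4, 1139 without replicate 2 of day 4 and 878 without replicate 2 of day 8. The split depended on the scaling of the libraries, with 1284 higher and 1266 lower after upper-quartile rescaling and 1170 higher and 1404 lower after quantile normalization, whereas the counts of rising members in the lists of developmental genes below moved by less than 1.5 times under both.

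**Figure D2:**
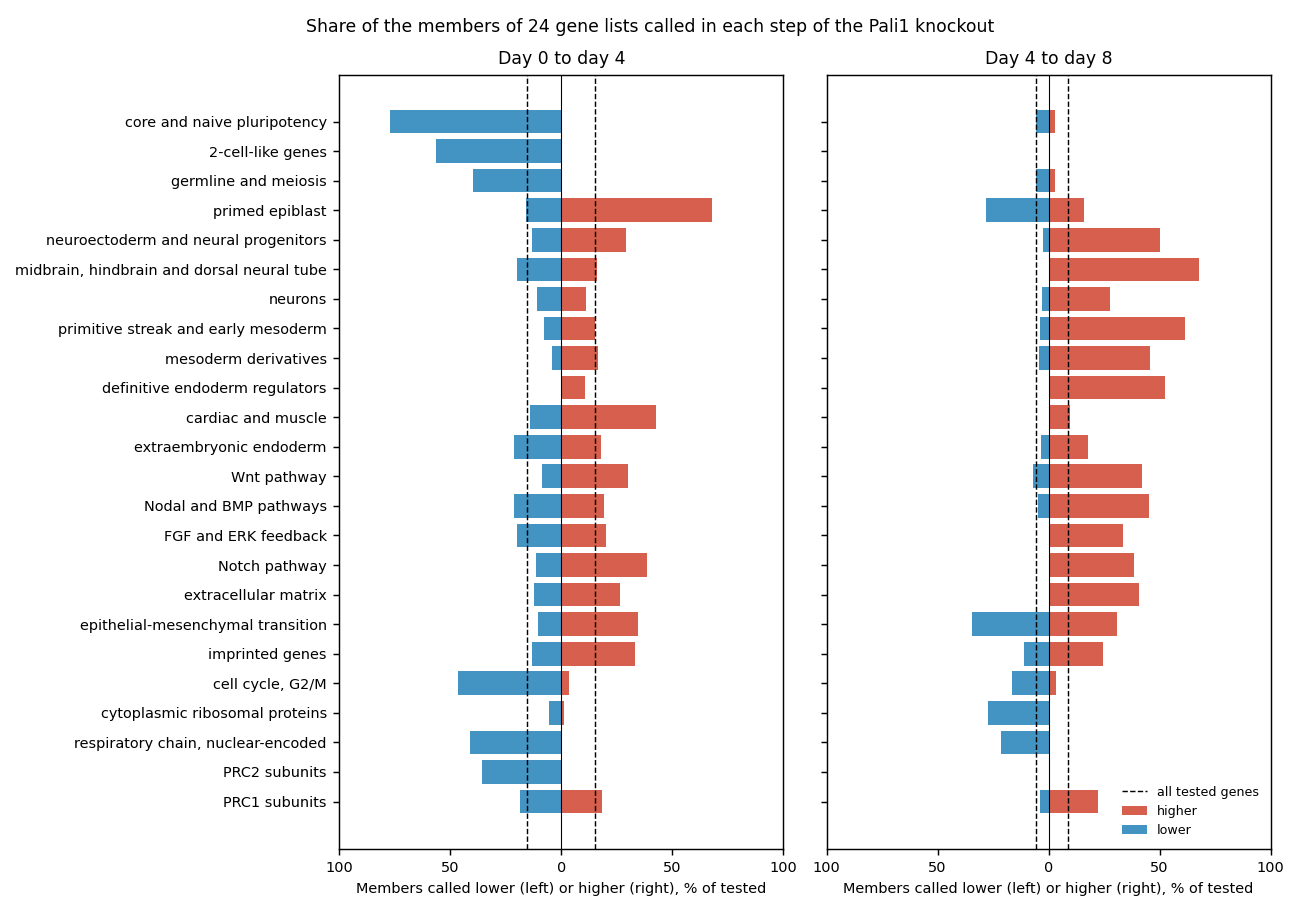
Members of 24 gene lists called higher (red, to the right) or lower (blue, to the left) as a percentage of tested members, for day 0 to 4 and day 4 to 8 of the Pali1 knockout, with dashed lines at the share of all tested genes. The pluripotency list extends furthest to the left in the first interval, and the midbrain, streak and endoderm lists extend to the right in the later interval.

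Lists were chosen with earlier results of these data known, so a rank among them is descriptive only. The midbrain, hindbrain and dorsal neural tube list had the largest share of rising members of any list in this step, 17 of 25 tested genes with 0 falling and a median of 2.85, against 0.02 over all tested genes. The promoters of its members Wnt1 and En1 and of Zic1, a neural progenitor gene, are shown beside that of Nanog, which fell in the earlier interval, as examples of the CpG content that PRC2 is known to read. The 4 genes were chosen after the values were seen and do not stand for all rising or falling genes. Each is the RefSeq sequence on GRCm38.p6 from 250 bases before to 50 after the first listed start, 5′ to 3′, with each CpG in capitals.
Wnt1: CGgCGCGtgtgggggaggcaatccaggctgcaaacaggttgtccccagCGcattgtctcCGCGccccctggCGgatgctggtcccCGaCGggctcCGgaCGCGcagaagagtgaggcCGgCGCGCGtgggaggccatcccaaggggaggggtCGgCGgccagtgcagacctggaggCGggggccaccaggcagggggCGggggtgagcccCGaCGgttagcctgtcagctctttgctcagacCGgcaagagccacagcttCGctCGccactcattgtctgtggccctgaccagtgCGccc
En1: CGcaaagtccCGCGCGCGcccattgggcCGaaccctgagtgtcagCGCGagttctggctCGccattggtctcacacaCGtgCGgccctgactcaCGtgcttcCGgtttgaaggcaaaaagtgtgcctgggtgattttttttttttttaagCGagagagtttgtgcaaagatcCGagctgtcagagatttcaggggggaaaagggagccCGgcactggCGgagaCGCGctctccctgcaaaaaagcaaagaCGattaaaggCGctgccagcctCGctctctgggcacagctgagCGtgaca
Zic1: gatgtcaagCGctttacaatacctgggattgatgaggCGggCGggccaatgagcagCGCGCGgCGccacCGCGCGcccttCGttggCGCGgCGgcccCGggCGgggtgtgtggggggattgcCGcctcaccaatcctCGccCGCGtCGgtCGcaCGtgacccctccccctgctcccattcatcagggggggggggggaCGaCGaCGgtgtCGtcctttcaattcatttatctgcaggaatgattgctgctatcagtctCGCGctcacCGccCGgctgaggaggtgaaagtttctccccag
Nanog: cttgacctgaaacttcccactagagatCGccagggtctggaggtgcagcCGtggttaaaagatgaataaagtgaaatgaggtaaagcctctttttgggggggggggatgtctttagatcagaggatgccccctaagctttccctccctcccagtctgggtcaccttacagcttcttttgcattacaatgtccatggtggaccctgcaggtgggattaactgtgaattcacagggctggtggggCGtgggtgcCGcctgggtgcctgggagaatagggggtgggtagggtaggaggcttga
The windows are chr15:98789607-98789906 (plus strand) for Wnt1, chr1:120602237-120602536 (plus) for En1, chr9:91365719-91366018 (minus) for Zic1 and chr6:122707239-122707538 (plus) for Nanog, which has 2 listed starts. The motif searched was CG, which reads the same on both strands. Wnt1 held 26, a count that 16.8% of 27025 genes with a listed promoter reach, En1 held 23 (reached by 21.6%), Zic1 held 31 (reached by 10.3%) and Nanog held 4 (reached by 68.1%). A comparison of CpG content between called and other genes was void, because only 78.8% of the tested genes had a listed promoter. Among genes that had one, the median count was 17 for those called over 4-fold higher from day 4 to day 8 and 19 over all tested genes. It was 20 for all genes called higher in that interval. From day 0 to day 4 it was 19 for all genes called lower and 8 for those called over 4-fold lower. No conclusion is drawn from these medians.

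Wnt1 (chromosome 15, 98789857 to 98793830, protein-coding), the WNT ligand of the midbrain-hindbrain boundary and the dorsal midline, was listed at 0 and 0 at day 0, 0 and 0 at day 4 and 749 and 1155 at day 8. All 4 earlier libraries were at 0 and both day 8 libraries were high (adjusted p = 9.34e-09). En1 (chromosome 1, 120602487 to 120607991, protein-coding), the engrailed homeobox factor of the same boundary, stood at 18.6 and 15.9 at day 0, 12.6 and 21 at day 4 and 721 and 949 at day 8. En1 rose by 5.35 (SE 0.59, adjusted p = 1.14e-05) from day 4. En2, its paralog, stood at 67 and 84.6 at day 0, 22.3 and 28 at day 4 and 785 and 1081 at day 8. En2 rose by 5.0 (SE 0.44, adjusted p = 1.64e-06), after lower values at day 4 than at day 0. Pax3, a paired-box factor of the dorsal neural tube, stood at 1.3 and 2.09 at day 0, 4.36 and 4.6 at day 4 and 593 and 894 at day 8. Pax3 rose by 6.43 (SE 0.45, adjusted p = 1.67e-07). In all 4 genes the day 8 libraries exceeded every earlier library by more than the spread between duplicates, and replicate 2 was the higher of the pair.

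Signalling genes of the list, 4 of which follow, rose in the same interval. Wnt8b, a WNT ligand of the dorsal forebrain and hippocampal primordium, stood at 1.24 and 0.996 at day 0, 3.87 and 0.876 at day 4 and 681 and 1042 at day 8. Wnt8b rose by 7.09 (SE 0.74, adjusted p = 8.36e-06). Wnt3a, a ligand of the dorsal midline and of the primitive streak, stood at 21.1 and 21.9 at day 0, 1.94 and 2.63 at day 4 and 256 and 301 at day 8. Wnt3a rose by 5.49 (SE 0.60, adjusted p = 1.13e-05). Rspo2, which strengthens WNT signals by protecting their receptors, stood at 1.24 and 0 at day 0, 0.968 and 0 at day 4 and 302 and 496 at day 8. Rspo2 rose by 6.46 (SE 0.72, adjusted p = 1.33e-05). Msx2, a homeobox target of BMP signals, stood at 14.9 and 17.9 at day 0, 24.2 and 23.7 at day 4 and 219 and 328 at day 8. Msx2 rose by 3.28 (SE 0.36, adjusted p = 1.13e-05). For each of these genes the day 0 and day 4 libraries were low and the day 8 libraries did not overlap them.

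Of 38 tested neuroectoderm genes, 19 rose and 1 fell from day 4 to day 8 (median 1.87), after 11 had risen and 5 fallen (2 without replicate 1 of day 4) in the earlier interval. Zic1 (chromosome 9, 91358058 to 91365768, protein-coding), a zinc finger factor of the dorsal neural tube, stood at 1.24 and 0 at day 0, 12.6 and 4.38 at day 4 and 1659 and 2431 at day 8. Zic1 rose by 7.42 (SE 0.70, adjusted p = 2.86e-06). Over the whole course its rise of 8.78 (SE 0.70, adjusted p = 4.38e-08) was the largest of any named gene. Sox21, an SRY-box factor of neural progenitors, stood at 49.6 and 149 at day 0, 16.5 and 41.2 at day 4 and 1247 and 1522 at day 8. Sox21 rose by 5.51 (SE 0.64, adjusted p = 2.19e-05). Pou3f2 (BRN2), a POU factor of neural progenitors, stood at 2.48 and 6.97 at day 0, 20.3 and 11.4 at day 4 and 588 and 664 at day 8. Pou3f2 rose by 5.02 (SE 0.46, adjusted p = 2.21e-06), and Pou3f3 rose by 6.05 (SE 0.51, adjusted p = 8.52e-07). Sox1, the earliest definitive neural plate factor, stood at 154 and 295 at day 0, 654 and 1258 at day 4 and 3338 and 3554 at day 8. The 3 groups did not overlap, the change in the later interval missed the threshold at 1.92 (SE 0.73, adjusted p = 0.0912), and the change over the 8 days was called at 3.99 (SE 0.73, adjusted p = 0.000287). For Pax6, a forebrain and neural progenitor factor, the groups of all 3 days overlapped, the higher library of each standing at 453, 402 and 495, with a change over the 8 days of 0.65 (SE 0.58, adjusted p = 0.398).

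Further genes of axon guidance and neural differentiation were among the named largest rises of this interval. Unc5c, a netrin receptor, stood at 22.2 and 17.8 at day 0, 16.5 and 10.5 at day 4 and 1340.1 and 2216 at day 8. Unc5c rose by 6.65 (SE 0.51, adjusted p = 4.39e-07). Erbb4, a neuregulin receptor, stood at 0 and 0 at day 0, 0 and 0.876 at day 4 and 377 and 501 at day 8. Erbb4 rose by 6.63 (SE 0.49, adjusted p = 3.37e-07). Rmst, a long non-coding RNA of the midbrain and of neural progenitors, stood at 1.24 and 0 at day 0, 1.94 and 5.26 at day 4 and 446 and 748 at day 8. Rmst rose by 6.29 (SE 0.63, adjusted p = 5.19e-06). In each of them both day 8 libraries lay far above all 4 earlier libraries. Tmsb4x, thymosin beta 4, was listed at 0 and 0 at day 0, 0 and 0 at day 4 and 848 and 1271 at day 8, with adjusted p = 1.22e-11, but Pali wild type stood at 1779.8 and 2395 at day 0, 342 and 481 at day 4 and 546 and 340.0 at day 8, and a 0 in this gene can be a failed estimate.

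Among genes of postmitotic neurons 10 of 36 were called higher and 1 lower (median 0.83), and 6 higher without replicate 2 of day 4. Isl1, a LIM homeobox factor of early neurons and other tissues, was listed at 0 and 0 at day 0, 0 and 0 at day 4 and 67.4 and 104 at day 8, with adjusted p = 1.59e-05. Chgb, chromogranin B of secretory granules, stood at 7.44 and 15.9 at day 0, 9.68 and 10.5 at day 4 and 236 and 270.2 at day 8. Chgb rose by 4.19 (SE 0.59, adjusted p = 0.000113). Ebf2, a factor of differentiating neurons, stood at 2.48 and 1.99 at day 0, 3.87 and 0 at day 4 and 76.1 and 200.1 at day 8. Ebf2 rose by 4.51 (SE 0.78, adjusted p = 0.00081), with day 8 duplicates apart from each other but above all earlier libraries.

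Markers of the primitive streak and of definitive endoderm rose in the same interval. Of 26 tested streak and early mesoderm genes, 16 rose and 1 fell (median 2.32), and 9 rose without replicate 2 of day 8. T (brachyury), the T-box factor of the streak, stood at 6.2 and 11.9 at day 0, 0 and 14 at day 4 and 257 and 177 at day 8. T changed by 4.68 (SE 1.12, adjusted p = 0.00955), a call that was lost without replicate 1 of day 4 and without either replicate of day 8. Mixl1, a streak homeobox factor, stood at 12.4 and 11.9 at day 0, 28.1 and 20.2 at day 4 and 136 and 141 at day 8. Mixl1 changed by 2.36 (SE 0.59, adjusted p = 0.0115), a call that was lost with a pseudocount of 1 and without replicate 2 of day 4 or of day 8. Gsc, goosecoid of the anterior streak, stood at 12.4 and 13.9 at day 0, 9.68 and 8.76 at day 4 and 203 and 142 at day 8. Gsc rose by 3.72 (SE 0.47, adjusted p = 3.89e-05), and Lhx1, a LIM homeobox factor of the organiser, stood at 0 and 0 at day 0, 2.9 and 0.876 at day 4 and 282 and 191 at day 8. Lhx1 rose by 5.35 (SE 0.60, adjusted p = 1.38e-05). Rspo3, a secreted enhancer of WNT signals, stood at 3.72 and 2.99 at day 0, 21.3 and 21 at day 4 and 1186 and 1748 at day 8. Rspo3 rose by 5.84 (SE 0.67, adjusted p = 1.65e-05). Eomes, a T-box factor of streak and endoderm, stood at 91.7 and 121 at day 0, 255 and 231 at day 4 and 693 and 513 at day 8. Eomes changed by 2.46 (SE 0.48, adjusted p = 0.000445) over the 8 days and by 1.28 (SE 0.48, adjusted p = 0.0822) in the later interval.

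Of 19 tested regulators of definitive endoderm, 10 rose and 0 fell (median 2.47). Foxa2, the forkhead factor of endoderm and of the axial midline, stood at 1.25 and 3.85 at day 0, 5.85 and 5.12 at day 4 and 748 and 593 at day 8. Foxa2 rose by 6.14 (SE 0.77, adjusted p = 3.84e-05). Sox17, an endoderm SRY-box factor, stood at 0 and 0 at day 0, 0.966 and 0 at day 4 and 349.8 and 217 at day 8. Sox17 rose by 5.97 (SE 0.90, adjusted p = 0.000231). Cer1 (cerberus), a secreted antagonist of NODAL, BMP and WNT made by anterior endoderm, stood at 1.24 and 0.996 at day 0, 3.87 and 0.876 at day 4 and 1025 and 508 at day 8. Cer1 rose by 6.87 (SE 0.77, adjusted p = 1.33e-05). Gata6, a zinc finger factor of embryonic and extraembryonic endoderm, was listed at 2.48 and 8.96 at day 0, 0 and 0 at day 4 and 215 and 93.5 at day 8, with adjusted p = 0.00305. In these 4 genes replicate 1 was the higher of the day 8 pair, the reverse of the order in Wnt1, Pax3 and Zic1. Gata4, a related factor, stood at 16.1 and 0 at day 0, 0 and 0 at day 4 and 79.4 and 41.7 at day 8.

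Of 24 mesoderm derivative genes, 11 rose from day 4 to day 8 and 1 fell, and the 11 were 7 without either replicate of day 4 and 6 without replicate 2 of day 8. Of 21 endothelial and blood genes, 3 rose (14.3%, against 8.70% of all tested genes) and 0 fell, and Flt1, a VEGF receptor, stood at 9.92 and 9.96 at day 0, 92 and 97.3 at day 4 and 657 and 435 at day 8. Flt1 rose by 2.45 (SE 0.43, adjusted p = 0.000868). The cardiac and muscle list had 2 of 21 genes higher in this interval (9.52%), near the 8.70% over all tested genes. The 2 were 1 without replicate 2 of day 4 or of day 8. In the earlier interval 9 were higher (42.9%, against 15.2%) and 3 lower (14.3%, against 15.3%). The 3 were 1 without replicate 1 of day 0. Actc1, cardiac actin, stood at 9.92 and 4.98 at day 0, 168 and 162 at day 4 and 156 and 150.4 at day 8. Actc1 rose by 3.92 (SE 0.59, adjusted p = 6.02e-05) to day 4. Hox genes, which pattern the trunk, were low, with 14 of 38 in the table passing the filter and 0 of them called from day 4 to day 8, and Hoxb1, a hindbrain and mesoderm gene, at 6.2 and 0 at day 0, 17.4 and 12.3 at day 4 and 14.1 and 24.4 at day 8. Hoxa5, a trunk gene, did not pass the filter on low values. Of 28 extraembryonic endoderm genes, 5 rose and 1 fell from day 4 to day 8, and the 5 were 3 without replicate 2 of day 4 or either replicate of day 8. The summed value of the list ran from 44507 to 45093 at day 8 against 30721 to 36472 at day 4, and Afp, its defining gene, was listed at 0 and 0 at day 0, 0 and 0 at day 4 and 0 and 6.1 at day 8.

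WNT pathway genes, the ligands of which drive streak and dorsal neural fates, rose in 24 of 57 tested cases and fell in 4 from day 4 to day 8 (median 1.01), after 17 had risen and 5 fallen earlier. The 4 were 1 without replicate 2 of day 4 or of day 8, and the 5 were 2 without replicate 1 of day 0 and 3 without any other library of the interval. Beside the ligands above, Nkd1, a feedback inhibitor that WNT signals induce, stood at 28.5 and 50.5 at day 0, 178 and 199 at day 4 and 1536 and 1999.9 at day 8. Nkd1 rose by 2.19 (SE 0.26, adjusted p = 5.07e-06) to day 4 and 3.19 (SE 0.26, adjusted p = 7.24e-07) after it. Sfrp2, a secreted WNT-binding protein, stood at 218 and 273 at day 0, 1114 and 1209.9 at day 4 and 1378 and 1595 at day 8. Sfrp2 rose by 2.23 (SE 0.23, adjusted p = 1.68e-06) to day 4. NODAL and BMP genes rose in 19 of 42 cases and fell in 2, and 12 rose without replicate 2 of day 8. Bmp5, a BMP ligand, stood at 1.24 and 2.99 at day 0, 6.78 and 6.13 at day 4 and 150.1 and 179 at day 8. Bmp5 rose by 4.01 (SE 0.37, adjusted p = 2.3e-06), and Nog (noggin), which binds and blocks BMP ligands, stood at 1.24 and 0.996 at day 0, 0 and 0.876 at day 4 and 146 and 208 at day 8. Nog rose by 5.33 (SE 0.54, adjusted p = 5.83e-06).

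Notch genes rose in 10 of 26 cases and fell in 0 in the later interval. Hes1, the transcriptional repressor that Notch induces, stood at 377 and 312 at day 0, 452 and 517 at day 4 and 1038 and 895 at day 8. Hes1 rose by 0.99 (SE 0.18, adjusted p = 0.0011). Jag1, a Notch ligand, stood at 1262 and 1322 at day 0, 719 and 687 at day 4 and 1882 and 2019 at day 8. Jag1 changed by -0.87 (SE 0.18, adjusted p = 0.000951) to day 4 and 1.47 (SE 0.18, adjusted p = 2.62e-05) after it. FGF and ERK genes rose in 10 of 30 cases and fell in 0, a count that was 3 to 5 when any of the 4 libraries was left out. Spry1, an ERK feedback inhibitor, stood at 383 and 420.2 at day 0, 772 and 761 at day 4 and 2617 and 2996 at day 8. Spry1 rose by 1.86 (SE 0.20, adjusted p = 8.92e-06). Of 21 retinoid genes, 8 rose and 1 fell, and 5 rose without replicate 1 of day 4 and 4 without replicate 2 of day 8. Cyp26a1, the enzyme that breaks down retinoic acid, stood at 0 and 5.97 at day 0, 5.81 and 5.26 at day 4 and 351 and 347 at day 8. Cyp26a1 rose by 5.21 (SE 0.75, adjusted p = 0.000159), and Crabp1, a retinoic acid-binding protein, stood at 119 and 96.3 at day 0, 43 and 42.4 at day 4 and 605 and 1002 at day 8. Crabp1 rose by 4.07 (SE 0.38, adjusted p = 2.63e-06).

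Several genes of epithelial junctions peaked at day 4. Cldn3, a claudin of tight junctions, stood at 84.3 and 84.6 at day 0, 420.1 and 392 at day 4 and 201 and 152 at day 8. Cldn3 rose by 2.21 (SE 0.20, adjusted p = 3.67e-07) to day 4 and changed by -1.19 (SE 0.20, adjusted p = 0.000648) after it. Rab25, a vesicle GTPase of epithelial cells, stood at 117 and 103 at day 0, 332 and 319 at day 4 and 85.9 and 89.4 at day 8. Rab25 rose by 1.54 (SE 0.28, adjusted p = 0.000411) to day 4 and changed by -1.85 (SE 0.28, adjusted p = 0.000262) after it. Ocln, occludin of tight junctions, stood at 134 and 166 at day 0, 485 and 424 at day 4 and 196 and 168 at day 8. Ocln rose by 1.58 (SE 0.26, adjusted p = 0.000138) to day 4 and changed by -1.30 (SE 0.26, adjusted p = 0.00231) after it. For all 3 genes both day 4 libraries lay above every other library.

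Epcam, an epithelial adhesion protein, stood at 5177 and 5388 at day 0, 7259 and 7246 at day 4 and 3346 and 2702 at day 8. Epcam changed by -1.27 (SE 0.15, adjusted p = 2.7e-05) from day 4 to day 8. Cdh1, E-cadherin (chromosome 8, 106603350 to 106670247, protein-coding), stood at 12253 and 10688 at day 0, 17150 and 14733 at day 4 and 7888 and 5998 at day 8, with a change of 0.47 (SE 0.18, adjusted p = 0.0597) to day 4 and a change of -1.21 (SE 0.18, adjusted p = 0.000258) after it. Cdh2, N-cadherin, which replaces E-cadherin in neural plate and mesoderm, stood at 105 and 203 at day 0, 339.8 and 477 at day 4 and 4324 and 5012 at day 8. Cdh2 rose by 3.52 (SE 0.49, adjusted p = 0.000113). Its day 8 libraries lay above all earlier libraries, whereas those of Cdh1 and Epcam lay below them. Cdh11, a mesenchymal cadherin, stood at 79.4 and 69.7 at day 0, 58.1 and 78.9 at day 4 and 1114 and 1426 at day 8. Cdh11 rose by 4.14 (SE 0.34, adjusted p = 7.24e-07).

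Vim, the intermediate filament vimentin, fell and returned, at 5431 and 6306 at day 0, 1125 and 1348 at day 4 and 6533 and 9161 at day 8. Vim changed by -2.24 (SE 0.37, adjusted p = 0.000145) to day 4 and 2.65 (SE 0.37, adjusted p = 0.000109) after it. Zeb1, a repressor of Cdh1, stood at 43.4 and 92.6 at day 0, 21.3 and 16.6 at day 4 and 150.1 and 232 at day 8. Zeb1 rose by 3.06 (SE 0.56, adjusted p = 0.00131) from day 4. Over the 29 tested genes of epithelial-mesenchymal transition, 9 rose and 10 fell from day 4 to day 8. Without any 1 of replicate 1 of day 4, replicate 2 of day 4 or replicate 2 of day 8, 6 rose and 6 fell.

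**Figure D3:**
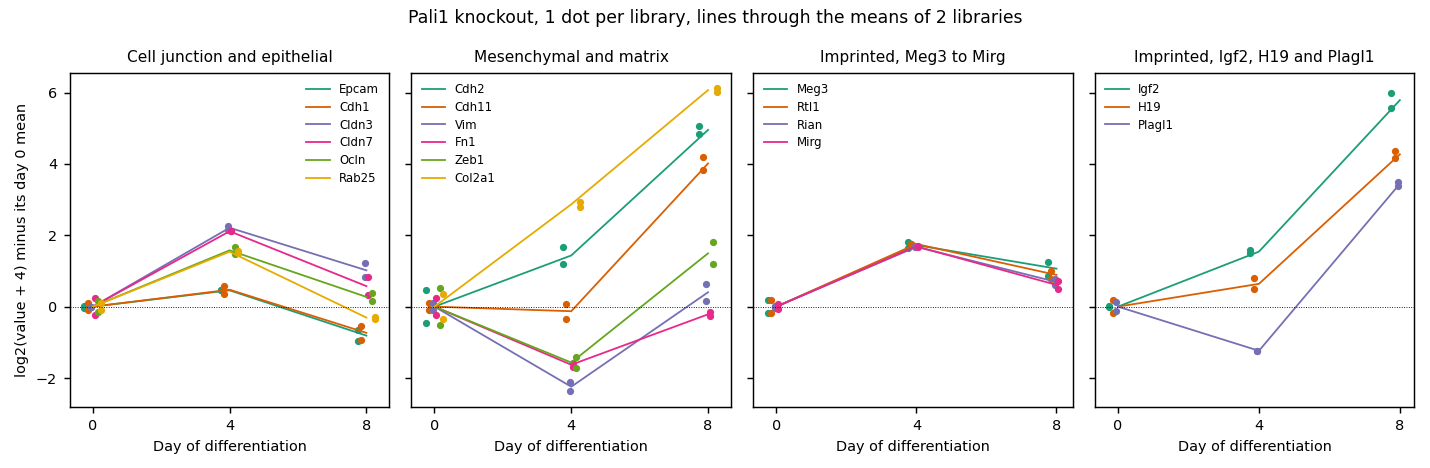
log2(value + 4) minus its day 0 mean for 19 genes of the Pali1 knockout at day 0, 4 and 8, with 1 dot per library and lines through the means of 2 libraries. Junction genes and the Meg3 to Mirg genes were highest at day 4, whereas Cdh2, Cdh11, Igf2, H19 and Plagl1 were highest at day 8.

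Of 49 tested extracellular matrix genes, 20 rose and 0 fell from day 4 to day 8 (median 0.93), and 13 rose without replicate 2 of day 8. Col2a1, a fibrillar collagen of notochord and cartilage, stood at 63.8 and 106 at day 0, 598 and 652 at day 4 and 5581 and 5972 at day 8. Col2a1 rose by 2.87 (SE 0.34, adjusted p = 6.86e-06) to day 4 and 3.20 (SE 0.34, adjusted p = 1.13e-05) after it. Fbn2, a fibrillin of embryonic microfibrils, stood at 58.3 and 62.7 at day 0, 159 and 228 at day 4 and 2101 and 2250.4 at day 8. Fbn2 rose by 3.49 (SE 0.38, adjusted p = 1.24e-05) from day 4. Col1a2, a chain of type I collagen, stood at 21.1 and 24.9 at day 0, 54.2 and 58.7 at day 4 and 829.7 and 909 at day 8. Col1a2 rose by 3.85 (SE 0.55, adjusted p = 0.00014). From day 0 to day 4, 13 members of the list had risen and 6 fallen, Lama1 and Nid1 of basement membranes among the 6. Lama1, a laminin chain, stood at 2400.5 and 2038 at day 0, 226 and 110.4 at day 4 and 832 and 840.2 at day 8. Lama1 changed by -3.77 (SE 0.38, adjusted p = 1.37e-06) to day 4 and rose by 2.37 (SE 0.38, adjusted p = 0.0005) after it, and Nid1, nidogen, stood at 4767 and 3696 at day 0, 528 and 489.8 at day 4 and 1104 and 1192 at day 8. Nid1 changed by -3.04 (SE 0.22, adjusted p = 3.55e-08). For both genes the day 8 libraries lay between those of day 4 and day 0.

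Imprinted genes, which are expressed from the allele of a single parent and include a number of growth regulators, rose in 15 of 45 tested cases and fell in 6 from day 0 to day 4 (3 when any library was left out), and rose in 11 and fell in 5 from day 4 to day 8. Without replicate 2 of day 8 the 11 were 7 and the 5 were 1, and the 5 were 3 without either replicate of day 4. Meg3 and Rian, maternally expressed RNAs of the Dlk1-Dio3 region, peaked at day 4. Meg3 stood at 1987 and 1550 at day 0, 6134 and 5499 at day 4 and 4200.3 and 3215 at day 8. Meg3 rose by 1.72 (SE 0.18, adjusted p = 1.98e-06) to day 4 and changed by -0.66 (SE 0.18, adjusted p = 0.022) after it, and the later call was lost without any library but replicate 1 of day 8 and when the 6 libraries were fitted alone. Rian stood at 6532 and 6776 at day 0, 21487 and 21058 at day 4 and 11403 and 10120 at day 8. Rian rose by 1.68 (SE 0.21, adjusted p = 9e-06) to day 4 and changed by -0.99 (SE 0.21, adjusted p = 0.00388) after it, and the later call was lost without replicate 2 of day 8. Both day 4 libraries were above all others in each of the RNAs. Rtl1, the retrotransposon-derived gene of the same region that is expressed from the paternal allele, followed the same order, at 489 and 374 at day 0, 1454 and 1452 at day 4 and 863 and 733 at day 8, and its rise was 1.75 (SE 0.24, adjusted p = 1.97e-05). Antisense transcripts overlap Rtl1, and the labels do not say whether counting used strand.

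The Igf2-H19 pair, imprinted in opposite directions, rose late. Igf2 (chromosome 7, 142650768 to 142666816, protein-coding), a fetal growth factor, stood at 49.6 and 50.8 at day 0, 149 and 159 at day 4 and 2584 and 3455 at day 8. Igf2 rose by 4.25 (SE 0.37, adjusted p = 1.2e-06) from day 4. H19 (chromosome 7, 142575530 to 142578146), a long non-coding RNA, stood at 128 and 167 at day 0, 255 and 207 at day 4 and 2707 and 3089.8 at day 8. H19 rose by 3.63 (SE 0.50, adjusted p = 0.000113). Plagl1, a zinc finger regulator of imprinted genes, stood at 112 and 134 at day 0, 49.4 and 49.9 at day 4 and 1317 and 1430.5 at day 8. Plagl1 rose by 4.68 (SE 0.50, adjusted p = 1.09e-05). For all 3 genes the day 8 libraries lay more than 5-fold above every earlier library. Nnat, neuronatin, stood at 95.1 and 94.2 at day 0, 972 and 869 at day 4 and 2115 and 2095 at day 8. Nnat rose by 3.23 (SE 0.34, adjusted p = 1.73e-06) to day 4. Magel2, a gene of the Prader-Willi region, stood at 40.9 and 52.8 at day 0, 619 and 552 at day 4 and 418 and 397 at day 8. Magel2 rose by 3.54 (SE 0.42, adjusted p = 6.07e-06). Snrpn, of the same region, stood at 3644 and 3864 at day 0, 10095 and 11965 at day 4 and 5602 and 4217 at day 8. Snrpn rose by 1.55 (SE 0.20, adjusted p = 1.5e-05) to day 4 and changed by -1.18 (SE 0.20, adjusted p = 0.000758) after it.

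Called members of the G2/M and respiratory chain lists mostly fell, and the median changes of these 2 lists were small. Of 30 tested G2/M genes, 14 fell and 1 rose from day 0 to day 4 (median -0.30), and the 14 were 9 without replicate 2 of day 0 and 7 without replicate 1 of day 4. After quantile normalization 8 fell and 3 rose. Nek2, a centrosome kinase, stood at 3234 and 3429 at day 0, 1840.1 and 2034 at day 4 and 1519 and 1666 at day 8. Nek2 changed by -0.78 (SE 0.12, adjusted p = 7.15e-05). Of 51 nuclear-encoded respiratory chain genes, 21 fell from day 0 to day 4 and 42 fell over the 8 days (median -0.51), with 0 higher in either comparison. The 21 were 12 without replicate 1 of day 0 and 13 without replicate 1 of day 4 or after quantile normalization. Uqcrc1, a core subunit of complex III, stood at 7583 and 7239.7 at day 0, 4350 and 4491 at day 4 and 4069 and 3825 at day 8. Uqcrc1 changed by -0.91 (SE 0.08, adjusted p = 9.22e-08) over the 8 days. Atp5a1, a subunit of ATP synthase, stood at 37037 and 37303 at day 0, 27880 and 28417 at day 4 and 24536 and 22559 at day 8. Atp5a1 changed by -0.66 (SE 0.06, adjusted p = 1.94e-07).

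Of 73 ribosomal protein genes, 47 fell over the 8 days and 0 rose (median -0.33), but after quantile normalization 13 fell and 5 rose with a median of -0.07, and many have pseudogenes that could share reads. Among inhibitors of the cell cycle and p53 targets, Cdkn1a (p21) stood at 201 and 142 at day 0, 419 and 479 at day 4 and 1133 and 1011 at day 8. Cdkn1a rose by 1.39 (SE 0.23, adjusted p = 0.000141) to day 4 and 1.25 (SE 0.23, adjusted p = 0.00117) after it. Btg2, an antiproliferative p53 target, stood at 226 and 319.7 at day 0, 1516 and 1559.5 at day 4 and 1651 and 1628 at day 8. Btg2 rose by 2.50 (SE 0.23, adjusted p = 5.16e-07) to day 4. Ccng1, cyclin G1, rose by 1.05 (SE 0.17, adjusted p = 0.000135). Over this list 9 of 33 genes rose (27.3%, against 15.2% of all tested genes) and 7 fell (21.2%, against 15.3%) to day 4. The 7 were 3 without replicate 1 of day 4.

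Enzymes of threonine, serine and one-carbon metabolism fell in 7 of 23 cases to day 4 and rose in 1. Shmt1, a serine hydroxymethyltransferase, stood at 4199.5 and 4169 at day 0, 2223 and 2511 at day 4 and 2067 and 2068 at day 8. Shmt1 changed by -0.82 (SE 0.08, adjusted p = 6.34e-07). The rising member was Mthfd1, the cytosolic folate enzyme, which stood at 9214 and 9318 at day 0, 19220 and 20791 at day 4 and 8852 and 7081 at day 8. Mthfd1 rose by 1.11 (SE 0.13, adjusted p = 3.48e-06) to day 4 and changed by -1.34 (SE 0.13, adjusted p = 2.86e-06) after it. Its day 4 libraries were above all others and its day 8 libraries were near those of day 0.

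Subunits and partners of PRC2 fell in 5 of 14 tested cases and rose in 0 from day 0 to day 4, and 0 of 14 were called from day 4 to day 8. The 5 (35.7%, against 15.3% of all tested genes) were 2 (14.3%) without replicate 2 of day 0 or replicate 1 of day 4. Eed, a core subunit that reads the methyl mark, stood at 4565 and 4500.2 at day 0, 1683 and 1950.3 at day 4 and 1573 and 1662 at day 8. Eed changed by -1.32 (SE 0.14, adjusted p = 1.68e-06) to day 4. Epop, a partner of PRC2 in stem cells, stood at 3149 and 3575 at day 0, 766 and 919 at day 4 and 986 and 989 at day 8. Epop changed by -1.99 (SE 0.16, adjusted p = 7.1e-08). Suz12, a core subunit, stood at 7989.6 and 7869.6 at day 0, 5362 and 5624 at day 4 and 4974 and 5193 at day 8. Suz12 changed by -0.64 (SE 0.15, adjusted p = 0.00232) over the 8 days. Jarid2, an accessory subunit, stood at 5407 and 6829 at day 0, 3629.8 and 4188 at day 4 and 3833 and 3346 at day 8. Jarid2 changed by -0.76 (SE 0.17, adjusted p = 0.00155) over the 8 days. In all 4 genes the libraries of day 4 and day 8 lay below both libraries of day 0.

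Subunits of PRC1, the complex that compacts Polycomb targets and ubiquitinates histone H2A, rose in 5 and fell in 5 of 27 tested cases to day 4 (18.5% each), near the shares of 15.2% and 15.3% over all tested genes. The 5 that rose were 3 without either replicate of day 0. Kdm2b, which brings a variant PRC1 to unmethylated CpG, stood at 1626 and 1938 at day 0, 466 and 646 at day 4 and 716 and 539.6 at day 8. Kdm2b changed by -1.69 (SE 0.27, adjusted p = 0.000129) to day 4, and L3mbtl2, of another variant complex, changed by -0.73 (SE 0.11, adjusted p = 6.34e-05). Cbx2, a chromodomain subunit of canonical PRC1, stood at 606 and 625 at day 0, 1327 and 1389 at day 4 and 1807 and 2225 at day 8. Cbx2 rose by 1.14 (SE 0.17, adjusted p = 7.64e-05) to day 4. Bmi1, another canonical subunit, stood at 98 and 123 at day 0, 107 and 145 at day 4 and 525 and 642 at day 8. Bmi1 rose by 2.18 (SE 0.42, adjusted p = 0.00199) from day 4 to day 8. From day 4 to day 8, 6 rose and 1 fell. The 6 were 2 without replicate 1 of day 4 and 3 without replicate 2 of day 4 or of day 8.

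Other genes turned at day 4 without belonging to these lists. Galnt3, an enzyme that adds sugars to secreted proteins, stood at 13.6 and 24.9 at day 0, 302 and 211 at day 4 and 26.1 and 25.4 at day 8. Galnt3 rose by 3.51 (SE 0.64, adjusted p = 0.000412) to day 4 and changed by -3.11 (SE 0.64, adjusted p = 0.00333) after it. Kcnq3, a neuronal potassium channel, stood at 4.96 and 9.96 at day 0, 184 and 140.2 at day 4 and 20.7 and 23.4 at day 8. Kcnq3 rose by 3.88 (SE 0.42, adjusted p = 2.36e-06) to day 4 and changed by -2.66 (SE 0.42, adjusted p = 0.000383) after it. Cbln4, a secreted synapse organiser, stood at 2.48 and 4.98 at day 0, 58.1 and 82.4 at day 4 and 7.61 and 5.08 at day 8. Cbln4 rose by 3.26 (SE 0.44, adjusted p = 1.85e-05) to day 4 and changed by -2.83 (SE 0.44, adjusted p = 0.000271) after it. In the opposite order, Hs3st3b1, a heparan sulfate sulfotransferase, stood at 244 and 277 at day 0, 41.6 and 47.3 at day 4 and 764 and 732 at day 8. Hs3st3b1 changed by -2.45 (SE 0.38, adjusted p = 9.26e-05) to day 4 and rose by 3.96 (SE 0.38, adjusted p = 3.86e-06) after it. Fgf10, an FGF ligand, stood at 102 and 86.6 at day 0, 12.6 and 13.1 at day 4 and 184 and 169.7 at day 8. Fgf10 changed by -2.54 (SE 0.36, adjusted p = 3.1e-05) to day 4 and rose by 3.42 (SE 0.36, adjusted p = 8.13e-06) after it. The 2 intervals share the day 4 libraries, so a deviation of these libraries alone would give both changes of such a gene.

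Over the whole course from day 0 to day 8, 6620 genes (42.1%) were called, 3462 higher (22.0%) and 3158 lower (20.1%). Beside Zic1, the named largest rises included Igfbp5, an IGF-binding protein, at 9.92 and 7.97 at day 0, 199 and 187 at day 4 and 3994 and 4704 at day 8. Igfbp5 changed by 8.39 (SE 0.50, adjusted p = 2.78e-09) over the 8 days. Pcdh7, a protocadherin, stood at 3.75 and 0 at day 0, 25.7 and 13.8 at day 4 and 1323 and 1879.5 at day 8. Pcdh7 changed by 8.15 (SE 0.81, adjusted p = 4.7e-07). Col4a6, a basement membrane collagen chain, was listed at 0 and 0 at day 0, 96.8 and 79.7 at day 4 and 1523 and 1791 at day 8, with adjusted p = 6.11e-06. Inhbb and Serpinb6c were among the named largest falls, with changes of -5.36 (SE 0.40, adjusted p = 2.07e-08) and -6.11 (SE 0.86, adjusted p = 1.93e-05), as was Bcl3, an atypical IκB protein, at 460 and 506 at day 0, 25.2 and 35.9 at day 4 and 25 and 0 at day 8. Bcl3 changed by -5.50 (SE 0.58, adjusted p = 9.79e-07).

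Whether the course of the knockout departed from that of Pali wild type was tested as the difference between the 2 changes. From day 0 to day 4 that difference was called for 67 genes (0.426%), 14 (0.0891%) with a larger and 53 (0.337%) with a smaller change in the knockout. From day 4 to day 8 it was called for 157 genes (0.999%), 114 larger (0.726%) and 43 smaller (0.274%). Over the 8 days it was called for 900 genes (5.73%), 425 larger (2.70%) and 475 smaller (3.02%). Larger and smaller are signed, so that a smaller change includes a deeper fall. The genes named from here on kept these calls without replicate 2 of Pali wild type at day 8. In Pali wild type alone 441 genes (2.81%) were called from day 4 to day 8, 1.95% higher and 0.853% lower, against 2275 in the knockout. Without replicate 2 of Pali wild type at day 8 the differences called were 61 from day 4 to day 8 and 448 over the 8 days, and without replicate 2 of the knockout at day 8 they were 31 and 240.

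In the midbrain list the difference of the later interval was called larger for 6 of 25 members and 0 smaller (median 1.97, against 0.03 over all tested genes). This list was chosen with earlier results of these data known, so its count is descriptive only. The 6 were 3 when any of the 8 libraries compared was left out, except replicate 1 of Pali wild type at day 8, without which they were 8. Wnt1, at 0 until day 4 in the knockout and at 749 and 1155 at day 8, was listed at 0 and 0 at day 0, 0 and 1.1 at day 4 and 42.1 and 14.4 at day 8 in wild type, and the difference had adjusted p = 0.000701. En2 stood at 92.1 and 162 at day 0, 44.4 and 58.2 at day 4 and 66.2 and 42.2 at day 8 in wild type, and its change from day 4 to day 8 was 4.94 (SE 0.63, adjusted p = 0.000889) larger in the knockout. En1 stood at 0 and 9.61 at day 0, 19.9 and 36.2 at day 4 and 36.1 and 32.2 at day 8 in wild type. For En1 the difference was 5.05 (SE 0.83, adjusted p = 0.00865), which was lost with a pseudocount of 1. The day 8 libraries of both lines were apart from each other in all 3 genes, and at day 4 the wild type libraries were level with or above those of the knockout.

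Nkd1, Dtx4 and Ddn differed as well. Nkd1 stood at 48.2 and 85.4 at day 0, 176 and 181 at day 4 and 326 and 271 at day 8 in wild type, and its later rise was 2.47 (SE 0.36, adjusted p = 0.00348) larger in the knockout, a call lost when the 12 libraries of both lines were fitted alone. Dtx4, an E3 ligase that regulates Notch, stood at 78.1 and 92.6 at day 0, 302 and 386 at day 4 and 1082 and 1308 at day 8 in the knockout. Wild type libraries stood at 23 and 24.6 at day 0, 255 and 361 at day 4 and 249.8 and 236 at day 8. For Dtx4 the difference was 2.11 (SE 0.32, adjusted p = 0.00458). Over the WNT list, 5 of 57 genes were called larger and 0 smaller from day 4 to day 8, and the 5 were 2 or 3 when any library was left out but replicate 1 of Pali wild type at day 8, without which they were 6. Ddn, dendrin, a cytoskeletal protein of dendrites and kidney, stood at 3.72 and 3.98 at day 0, 0.968 and 3.5 at day 4 and 294 and 327 at day 8 in the knockout. Its wild type values were 12.1 and 5.34 at day 0, 9.06 and 13.2 at day 4 and 27.1 and 11.1 at day 8. For Ddn the difference was 5.15 (SE 0.69, adjusted p = 0.00139). In each of these genes both knockout day 8 libraries exceeded all wild type libraries.

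**Figure D4:**
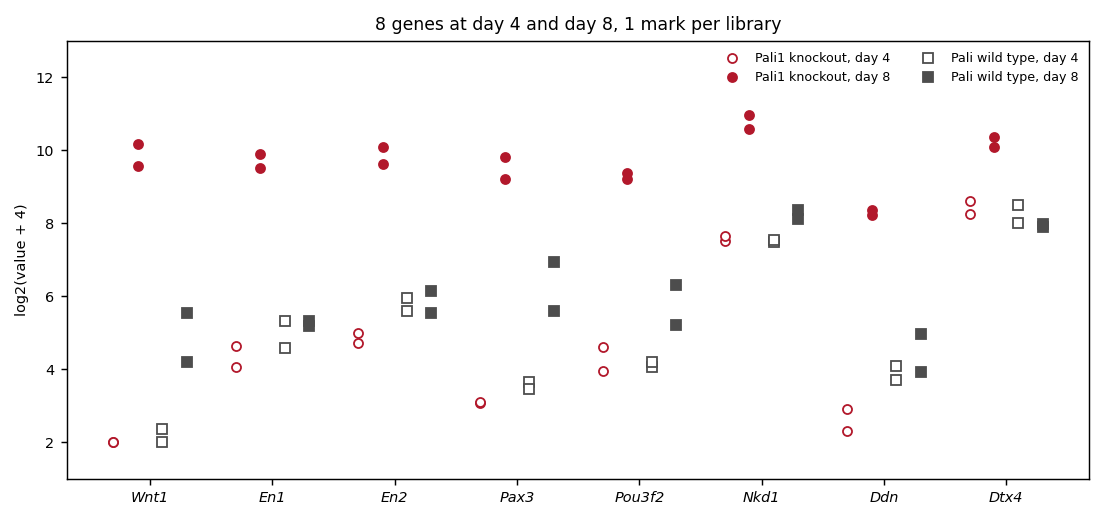
log2(value + 4) of 8 genes at day 4 (open marks) and day 8 (filled marks), with 1 mark per library, circles for the Pali1 knockout and squares for Pali wild type. At day 8 both knockout libraries of every gene lay above both wild type libraries, and at day 4 the lines were closer to each other.

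Over the 8 days Pou3f2 rose by 3.90 (SE 0.65, adjusted p = 0.00332) more in the knockout than in wild type, where it stood at 5.48 and 8.55 at day 0, 12.7 and 14.3 at day 4 and 75.3 and 33.3 at day 8. Msi1, a musashi RNA-binding protein of neural progenitors, stood at 74.4 and 44.8 at day 0, 377 and 308 at day 4 and 701 and 751 at day 8 in the knockout. In Pali wild type the values were 148 and 141 at day 0, 272 and 272 at day 4 and 328 and 283 at day 8. For Msi1 the difference was 2.50 (SE 0.46, adjusted p = 0.00563). Dll3, a Notch ligand-like protein, stood at 37.2 and 37.8 at day 0, 136 and 149 at day 4 and 204 and 229.6 at day 8 in the knockout. Pali wild type libraries held 51.5 and 34.2 at day 0, 72.5 and 87.8 at day 4 and 63.2 and 70.0 at day 8. For Dll3 the difference was 1.79 (SE 0.33, adjusted p = 0.00617). Hhex, a homeobox factor of anterior endoderm, stood at 60.8 and 40.8 at day 0, 64.9 and 58.7 at day 4 and 183 and 164 at day 8 in the knockout. The wild type values were 77.8 and 97.2 at day 0, 68.9 and 93.3 at day 4 and 59.2 and 86.7 at day 8. For Hhex the difference was 1.98 (SE 0.34, adjusted p = 0.00385). These 4 genes were higher in both knockout libraries than in both wild type libraries at day 8.

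Epcam, Rab25, Tdh and Tex19.1 differed in the other direction over the 8 days. Epcam stood at 5005 and 4038 at day 0, 6588 and 6859.7 at day 4 and 4921 and 6522 at day 8 in wild type, so that its day 8 libraries stayed near the level of day 0, and the difference from the knockout was -1.15 (SE 0.22, adjusted p = 0.0064). Rab25 stood at 117 and 64.1 at day 0, 433 and 339 at day 4 and 276 and 352 at day 8 in wild type. For Rab25 the difference was -2.10 (SE 0.40, adjusted p = 0.00664). Tdh stood at 20022 and 19717 at day 0, 6713 and 7259 at day 4 and 10200 and 8134 at day 8 in wild type. For Tdh the difference was -1.11 (SE 0.21, adjusted p = 0.00742). Tex19.1 stood at 846 and 847 at day 0, 573 and 634 at day 4 and 975 and 910.1 at day 8 in wild type. For Tex19.1 the difference was -1.35 (SE 0.24, adjusted p = 0.00449). Over the lists, 12 of 35 pluripotency genes were called smaller and 0 larger (median -0.79). The 12 were 4 without replicate 2 of Pali wild type at day 0, 10 without replicate 2 of wild type at day 8, 7 without replicate 1 of the knockout at day 0 or of wild type at day 8, and 2 without replicate 2 of the knockout at day 8. Of 35 germline genes, 5 were called smaller and 1 larger, and without 1 library 2 to 4 were smaller and 0 larger. Of 29 genes of epithelial-mesenchymal transition, 4 were called smaller and 2 larger, and without 1 library 2 to 4 were smaller and 0 to 2 larger.

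Sycp3 fell after day 4 in the knockout but stood at 183 and 207 at day 0, 251 and 304 at day 4 and 222 and 370.0 at day 8 in wild type. For Sycp3 the difference over the 8 days was -2.55 (SE 0.45, adjusted p = 0.00477). Rps24, a ribosomal protein, stood at 4272 and 4534 at day 0, 3209.5 and 3193 at day 4 and 1556 and 1342 at day 8 in the knockout. In wild type it stood at 4088 and 3713 at day 0, 3780.5 and 3652 at day 4 and 3199 and 3593 at day 8. For Rps24 the difference was -1.40 (SE 0.20, adjusted p = 0.000969). Mybl2, a cell cycle transcription factor, stood at 15219 and 14148 at day 0, 3515 and 4073 at day 4 and 3264 and 3044 at day 8 in the knockout. Wild type libraries stood at 15330 and 13169 at day 0, 6246 and 5695 at day 4 and 9518 and 8617 at day 8. For Mybl2 the difference was -1.57 (SE 0.26, adjusted p = 0.0032). In these 3 genes both knockout libraries of day 8 were below both wild type libraries.

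Meg3 and Rtl1 of the Dlk1-Dio3 region, and Gnas, changed further upward in the knockout. Meg3 stood at 2093 and 1780.4 at day 0, 2834 and 2337 at day 4 and 1569.6 and 1498 at day 8 in wild type, and its change was 1.40 (SE 0.26, adjusted p = 0.00634) larger in the knockout over the 8 days. Rtl1 stood at 585 and 543 at day 0, 748 and 759.6 at day 4 and 335 and 361 at day 8 in wild type. For Rtl1 the difference was 1.58 (SE 0.33, adjusted p = 0.0114). Gnas, an imprinted G protein locus on another chromosome, stood at 1396 and 1249 at day 0, 7062 and 5862 at day 4 and 6366 and 6988 at day 8 in the knockout. Its wild type values were 1870.1 and 2301 at day 0, 5305 and 5584 at day 4 and 3922 and 4557 at day 8. For Gnas the difference was 1.31 (SE 0.25, adjusted p = 0.00638). Of 45 imprinted genes 5 were called larger and 0 smaller over the 8 days, and the 5 were 3 without either replicate of day 0 in either line or either knockout replicate of day 8. At day 0 the lines were close for Meg3, and by day 4 both knockout libraries exceeded both wild type libraries.

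In the early interval the difference was called for few genes. Dusp4, an ERK phosphatase, stood at 575 and 562 at day 0, 1328 and 1421 at day 4 and 1803 and 1889 at day 8 in the knockout. In Pali wild type the values were 597 and 467 at day 0, 3551 and 3539 at day 4 and 2563 and 2815 at day 8. For Dusp4 the difference in the change to day 4 was -1.47 (SE 0.22, adjusted p = 0.00598). Thbs1, thrombospondin of the matrix, stood at 233 and 362 at day 0, 692 and 595 at day 4 and 2724 and 3492 at day 8 in the knockout. Pali wild type libraries held 34 and 13.9 at day 0, 2782 and 3062 at day 4 and 1567 and 1586 at day 8. For Thbs1 the difference was -5.68 (SE 0.93, adjusted p = 0.0116). Here the wild type libraries were below those of the knockout at day 0 and above them at day 4. Fut10, a fucosyltransferase-like gene, stood at 271 and 275 at day 0, 992 and 863 at day 4 and 982 and 1048 at day 8 in the knockout. The wild type values were 339.7 and 413 at day 0, 509 and 449 at day 4 and 463 and 453 at day 8, a larger rise in the knockout by 1.40 (SE 0.22, adjusted p = 0.00787). Qprt, an enzyme of NAD synthesis, stood at 86.8 and 81.7 at day 0, 265 and 276 at day 4 and 215 and 196 at day 8 in the knockout. In wild type it stood at 161 and 154 at day 0, 168 and 165 at day 4 and 185 and 174 at day 8. For Qprt the difference was 1.56 (SE 0.19, adjusted p = 0.00188).

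**Figure D5:**
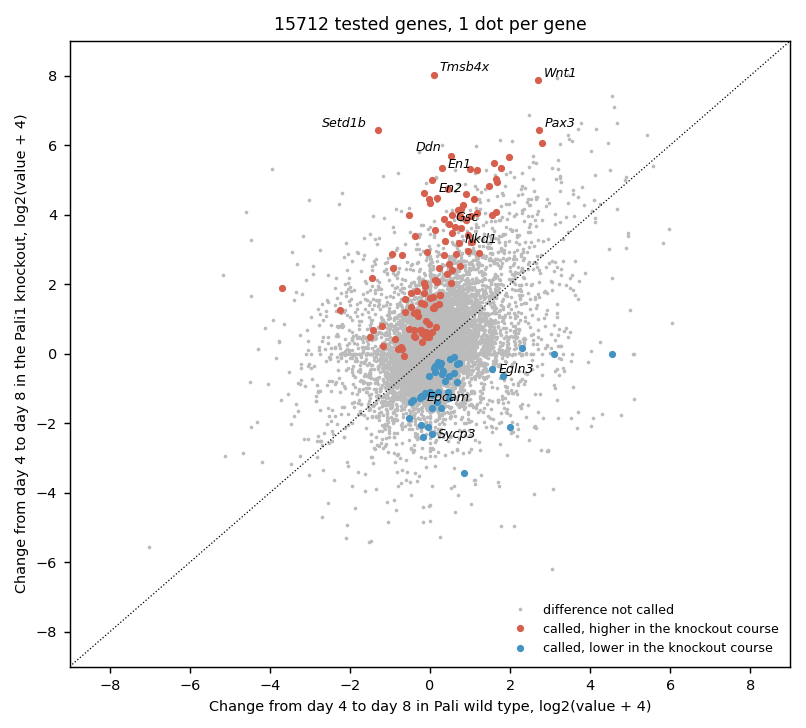
Change of log2(value + 4) from day 4 to day 8 in Pali wild type (x axis) and in the Pali1 knockout (y axis), with 1 dot per tested gene, 114 genes with a larger change in the knockout in red, 43 with a smaller change in blue and a dotted line at equal changes. Wnt1, En1, En2, Ddn and Pax3 lie far above the line, and Sycp3, Egln3 and Epcam lie below it.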

How the data were processed

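The authors deposited 1 table of normalised signal, with 1 value per gene (20563 genes) and library for 30 libraries, 15 groups of 2. Per the submitters' processing notes the tools were kallisto 0.43.1, HISAT2 2.0.5 and DESeq2 with the build mm10, without a statement of which made the table, of the annotation or of strand in counting. The deposited signal is counts scaled between libraries, since 82.3% to 86.1% of low values in a library were whole multiples of its smallest step within 0.001 of a step. That is too few to recover whole reads, so no count test was run. Estimated depth ran from 13198297 to 28151943 reads over all libraries, and low values are the least precise.

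From these values log2(value + 4) was computed for 15712 genes with at least 10 in at least 2 libraries, and limma 3.58.1 (R 4.3.3) was fitted to all 30 libraries with a mean per line and day (15 residual degrees of freedom), a variance trend and robust moderation. P-values were adjusted by Benjamini-Hochberg over all tested genes, and tests are two-sided. Folds on this scale understate the change of low genes. In simulated day 4 to day 8 data over 15712 genes the fit recovered 54 of 100 genes changed 2-fold and 87 of 100 changed 4-fold, with 10 false calls.

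Members and lists were chosen with earlier results of these data known. Named genes are a panel of 24, the largest changes past the threshold with duplicates within 2-fold, genes that turn at day 4 and up to 4 members per list, direction and comparison. Those described were picked from them, mostly genes called under every alternative. Alternatives changed the pseudocount, filter, scaling, moderation, libraries fitted and replicates. Current names in RefSeq matched 20361 symbols and older names 177. Replicate numbers were not used to pair the libraries in the main fit, as given at the end.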

Additional observations from a re-analysis of the deposited data

Results flagged for a closer look

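Both lines were sampled on the same days, and the difference between their changes was tested for every gene. It passed the threshold for 67 genes from day 0 to day 4, for 157 from day 4 to day 8 and for 900 over the 8 days. Those described above are listed here because their course differed between the lines by that test in the limma model. In the early interval the adjusted p was 0.00598 for Dusp4, 0.00787 for Fut10, 0.00188 for Qprt and 0.0116 for Thbs1, and Dusp4 and Thbs1 rose less in the knockout. In the later interval it was 0.00139 for Ddn, 0.00458 for Dtx4, 0.00865 for En1, 0.000889 for En2, 0.00348 for Nkd1, 5.12e-09 for Tmsb4x and 0.000701 for Wnt1, all with a larger change in the knockout. For Tmsb4x the knockout values before day 8 can be failed estimates, as given above, so its difference is uncertain. Over the 8 days the change was larger in the knockout for Pou3f2 (0.00332), Hhex (0.00385), Msi1 (0.00563), Dll3 (0.00617), Meg3 (0.00634), Gnas (0.00638) and Rtl1 (0.0114), each value being the adjusted p. It was smaller for Rps24 (0.000969), Mybl2 (0.0032), Tex19.1 (0.00449), Sycp3 (0.00477), Epcam (0.0064), Rab25 (0.00664), Tdh (0.00742) and Krt7 (0.0133). The groups hold 2 libraries each, so no library could be tested as standing apart within its group.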

How the results depend on the processing

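Of 191 named calls 13 were lost under at least 1 alternative, each named beside its value. Most of the genes described were chosen among calls kept under every alternative, so this share says nothing of stability. With the 6 libraries of the line fitted alone 4188, 1579 and 6019 genes were called from day 0 to 4, day 4 to 8 and day 0 to 8. Without 1 library the count of genes called ran from 3205 to 3820 (day 0 to 4), 878 to 1657 (day 4 to 8) and 4998 to 5542 (day 0 to 8), against 4792, 2275 and 6620. Counts of differences from Pali wild type ran from 23 to 74, 31 to 115 and 240 to 822, against 67, 157 and 900. The lowest count without 1 library was without replicate 1 of the knockout at day 4 for the early differences and without replicate 2 of the knockout at day 8 for the later ones. The 157 were 75 with a pseudocount of 1, 263 with 16 and 58 with the 12 libraries of both lines fitted alone, and the 67 were then 19. The cause was not tested for these, but the smaller fits have fewer libraries. The 72.6% of the 157 that were larger became 61.6% after upper-quartile rescaling (93 and 58) and 57.5% after quantile normalization (130 and 96).

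Replicate numbers were not used to pair the libraries in the main fit. Deviations of same-numbered knockout libraries correlated across genes with r of 0.0133, 0.0153 and -0.0311 between pairs of days. Correlations over all genes cannot exclude a pairing that acts on some genes. In Pax6 and Sox1, picked after their values were seen, replicate 2 was the higher knockout library on each day. With the replicate number as a block 105 early differences were called in place of 67, and 4874, 2348, 6710, 149 and 1030 genes in the other comparisons.

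Without 1 library, 55 of 86 counts of 1 to 4 list members called in the knockout course and 43 of 103 larger counts moved by over 1.5 times, and larger ones printed above that did so are given with their values. With 2 libraries a group and few reads behind low values, changes of 2-fold can be missed.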

Other observations

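Lists of other cell types and of metabolism held members called in both directions along the course of the knockout. Of 19 tested neural crest genes, 7 rose and 1 fell from day 4 to day 8. Tfap2b, an AP-2 factor of crest and dorsal neural tube, was listed at 0 and 0 at day 0, 0 and 0 at day 4 and 149 and 162 at day 8, with adjusted p = 2.19e-05 in limma, and Nr2f2 (COUP-TFII), a nuclear receptor of crest and mesoderm, at 0 and 0 at day 0, 0 and 0 at day 4 and 134 and 84.4 at day 8, with adjusted p = 1.12e-05. Both were at 0 in all 4 earlier libraries. Of 28 trophoblast and simple epithelium genes, 4 rose (14.3%) and 2 fell (7.14%) to day 4, at or below the shares over all tested genes (15.2% and 15.3%), and the 4 were 2 without any library of the interval. From day 4 to day 8, 6 rose and 5 fell, and without replicate 1 of day 4 or replicate 2 of day 8 both were 2. The 6 were 3 without replicate 1 of day 8, and the 5 were 2 without replicate 2 of day 4. Krt18, a keratin of simple epithelia, stood at 317 and 309 at day 0, 2286 and 2025 at day 4 and 2918 and 2352 at day 8. Krt18 rose by 2.77 (SE 0.48, adjusted p = 0.000275) to day 4. Relative to Pali wild type, 6 of these 28 genes had a smaller and 1 a larger change over the 8 days, and the 6 were 1 without replicate 2 of Pali wild type at day 0, replicate 1 of the knockout at day 0 or its replicate 2 at day 8, and 3 without replicate 2 of Pali wild type at day 8. Krt7, another such keratin, stood at 31 and 22.9 at day 0, 16.5 and 22.8 at day 4 and 107 and 58.9 at day 8 in the knockout. Wild type libraries stood at 4.38 and 3.21 at day 0, 28.1 and 36.2 at day 4 and 144 and 158 at day 8. For Krt7 the difference over the 8 days was -2.88 (SE 0.62, adjusted p = 0.0133). The call for Krt7 was lost without replicate 2 of Pali wild type at day 0 and without replicate 1 at day 0 or replicate 2 at day 8 of the knockout.

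Of 25 cholesterol synthesis genes, 7 fell and 1 rose to day 4, and the 7 were 3 without replicate 1 of day 4 and 4 without replicate 1 of day 0 or replicate 2 of day 4. Ebp, an isomerase of the pathway, stood at 935 and 1036 at day 0, 423 and 424 at day 4 and 559 and 555 at day 8. Ebp changed by -1.21 (SE 0.14, adjusted p = 4.29e-06) to day 4. Of 38 glycolysis and hypoxia genes, 8 fell (21.1%) and 4 rose (10.5%) in the same interval, not far from the shares over all tested genes. The 8 were 3 without replicate 2 of day 0 or of day 4 and 4 without replicate 1 of day 0, and the 4 were 2 without replicate 1 of day 0 and 1 without replicate 1 of day 4. Of 49 replication-dependent histone genes, 18 were higher and 2 lower at day 8 than at day 0, and the 18 were 2 without replicate 1 of day 8, 11 without its replicate 2 and 7 without either replicate of day 0. Histone genes are near-identical copies, so the assignment of their reads is uncertain.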
